A study of Rattus norvegicus with 84 samples.

Results

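MHC class I molecules and the machinery that supplies their peptides were followed through 8 genes in the rat hippocampus. They are the light chain B2m, the heavy chains RT1-A2 and RT1-CE5, the peptide transporter Tap1 and Tap2, its partner Tapbp, and the immunoproteasome subunits Psmb8 and Psmb9. The 8 were picked by gene symbol from the 15999 genes listed across the deposited tables, with earlier results of these data known. All 8 were present in each table and passed the filter on low values in each subregion. RNA was sequenced from the hippocampal fields CA1 and CA3 and from the dentate gyrus (DG), each dissected from a single hemisphere and frozen. All rats were males of F344, an inbred strain used in ageing research, with no treatment named: 12 young rats of 5 months and 16 middle-aged rats of 12 months. Each rat gave 1 library per subregion, 84 libraries from 28 rats. Per its title the study is about spatial pattern separation, or how well similar places are told apart, in ageing, and behaviour was not analysed here.

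In antigen presentation by class I, the proteasome cuts cytosolic proteins into peptides, the TAP transporter carries them into the endoplasmic reticulum, and tapasin holds an empty class I molecule beside the transporter until a peptide fits. The loaded heavy chain then travels to the cell surface paired with beta-2-microglobulin. Interferons raise most genes of the pathway and exchange constitutive proteasome subunits for the inducible ones encoded by Psmb8, Psmb9 and Psmb10. In the brain the pathway is known from microglia and endothelium, and class I molecules of neurons are also known for a part in the pruning of synapses. In the rat the heavy chains form the large RT1 family of closely similar genes, so reads of RT1-A2 and RT1-CE5 may be shared with relatives, and their values are uncertain to that extent.

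The labelled subregions were checked against markers fixed as lists. The summed normalized count of 6 CA1 pyramidal cell markers was at least 32850 in every CA1 library and at most 20760 in any other. For 6 CA3 markers the sum was at least 11590 in CA3 and at most 9771 elsewhere, and for 5 measured dentate granule cell markers it was at least 9548 in the DG and at most 7609 elsewhere. Markers of a neighbouring subregion varied between libraries. Granule cell markers summed to 1075 to 7609 in CA1, and CA1 markers to 3905 to 20760 in CA3. The part of such tissue in the members' levels was not tested. Library totals of recovered reads lay between 14.4 and 23.4 M. The animal numbers form 2 runs, with 6 young and 10 middle-aged rats in the lower one (the first run) and 6 of each in the higher one (the second run), and the labels name no batch. The ages hold separate blocks of numbers inside each run, and age cannot be told apart from what else may differ between blocks. In these bulk samples fewer cells of a type and less RNA per cell cannot be told apart either.

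The regulatory stretches of the members are shown first, as the place where the factors that interferon activates are known to bind genes of this pathway; their part in the values below was not tested. Windows of 300 bases, 250 before and 50 after each start site, were taken from RefSeq (build GRCr8) for all 8 members and searched on both strands for 3 motifs: an interferon regulatory factor (IRF) core spelled AANNGAAA, a kappa-B-like site spelled GGGANNNNCC, and CCAAT. The IRF core was found in 7 of the 8 windows, against 26.35% of 33469 windows of the same length. The lines below give 30 bases around it, in the direction of the gene, with the matched letters in capitals (adjoining matches run together, and a match on the other strand reads TTTCNNTT).
B2m: taagaacatgaAACTGAAAatgggaaagtc
RT1-A2: ccatcgcccagTTTCACTTctgcttctaac
RT1-CE5: catctcccctgTTTCACTTctgctcctaac
Tap1: tcggtggctgcTTTCGGTTtcttcttcctc
Tap2: ccgcggcagcgAAGTGAAAGCGAAAgcccg
Tapbp: cctttgagggaAAATGAAAGTGAAAGGAAA
Psmb8: ggtgctgtggcTTTCGCTTTCACTTccttg
The stretches lie at chr3:129549171-129549200 for B2m and chr20:4872706-4872735 for RT1-A2, both on the plus strand. On the minus strand of the same chromosome as RT1-A2 are RT1-CE5 at chr20:3484218-3484247, Tap1 at chr20:4668646-4668675, Tap2 at chr20:4652323-4652352, Tapbp at chr20:4967883-4967912 and Psmb8 at chr20:4657017-4657046. The window of Psmb9, on the plus strand, held neither the IRF core nor the kappa-B-like letters and had 1 CCAAT. That window overlaps the one of Tap1, which runs the other way. The window of Psmb9 begins at chr20:4668750. The IRF core of Tap1 lies just outside it, between the start sites of both genes. The absence in Psmb9 therefore holds for this window length only. In the annotation Tap2, Psmb8, Tap1 and Psmb9 follow each other directly, between the class II genes RT1-DOb and RT1-DMb.

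The kappa-B-like letters were found in 5 members, B2m, both RT1 chains, Tap1 and Tapbp, against 19.28% of all windows, and CCAAT in 5, B2m, both RT1 chains, Psmb8 and Psmb9, against 37.49%. In B2m and the RT1 chains the kappa-B-like letters stand next to the IRF core, as the following stretches show, again with the matches in capitals.
B2m: aactgaaaatGGGAAAGTCCCtctgtaacc
RT1-A2: gggcggggctGGGGATTCCCCatcgcccag
RT1-CE5: gggcggagctGGAGATTCCCcatctcccct
They lie at chr3:129549182-129549211 and chr20:4872687-4872716 on the plus strand and at chr20:3484238-3484267 on the minus strand. These matches describe letters in the reference; binding was not measured.

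A single middle-aged rat, replicate 10 (replicates are numbered in the order of deposit), stood far above the others in CA1 and CA3. Its RT1-A2 value in CA1 was 2359 normalized counts (the reads of a gene over the size factor of its library), where the other 15 middle-aged rats lay between 220.1 and 534.8. Its Psmb8 value in CA1 was 390.7 against 39.7 to 91.3 in the other 15, and its Psmb9 value was 321 against 37.2 to 75.5. Of the 8 members, CA1 and CA3 had 6 each at least 2-fold over the median of the other 15, and the DG had 1, RT1-A2. The same rule was met by 4.21%, 3.29% and 1.17% of the 14685, 14893 and 14526 genes tested, that is 618, 490 and 170 genes. The rat was singled out after its values were seen. The counts of members in it, here and below, are therefore no test against the shares of all genes. Counts of 2-fold higher genes in the other 27 rats had medians of 116, 72 and 92. The largest of them were 325, 365 and 209, so in the DG another rat had more such genes. The median of the 8 was 2.07, 1.52 and 0.57 on the log2 scale in CA1, CA3 and the DG.

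Within this rat the steps of the pathway stood higher by unequal amounts. RT1-A2 stood 2.71 above the other middle-aged rats on the log2 scale in CA1, Psmb8 and Psmb9 2.57 each, RT1-CE5 2.39, B2m 1.74 and Tap1 1.65. Tapbp was 0.94 higher and Tap2 0.41 higher, although Tap1 and Tap2 encode the paired chains of a single transporter. The constitutive subunits Psmb5, Psmb6 and Psmb7, which Psmb8, Psmb9 and Psmb10 replace, differed from the other rats by −0.52 to −0.01 across the 3 subregions. In the DG the ranks were less extreme: 4 of the 8 members had their highest value of 28 libraries there, against 7 in CA1 and 8 in CA3, and 3.55%, 9.02% and 6.88% of all genes tested did so.

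**Figure D1:**
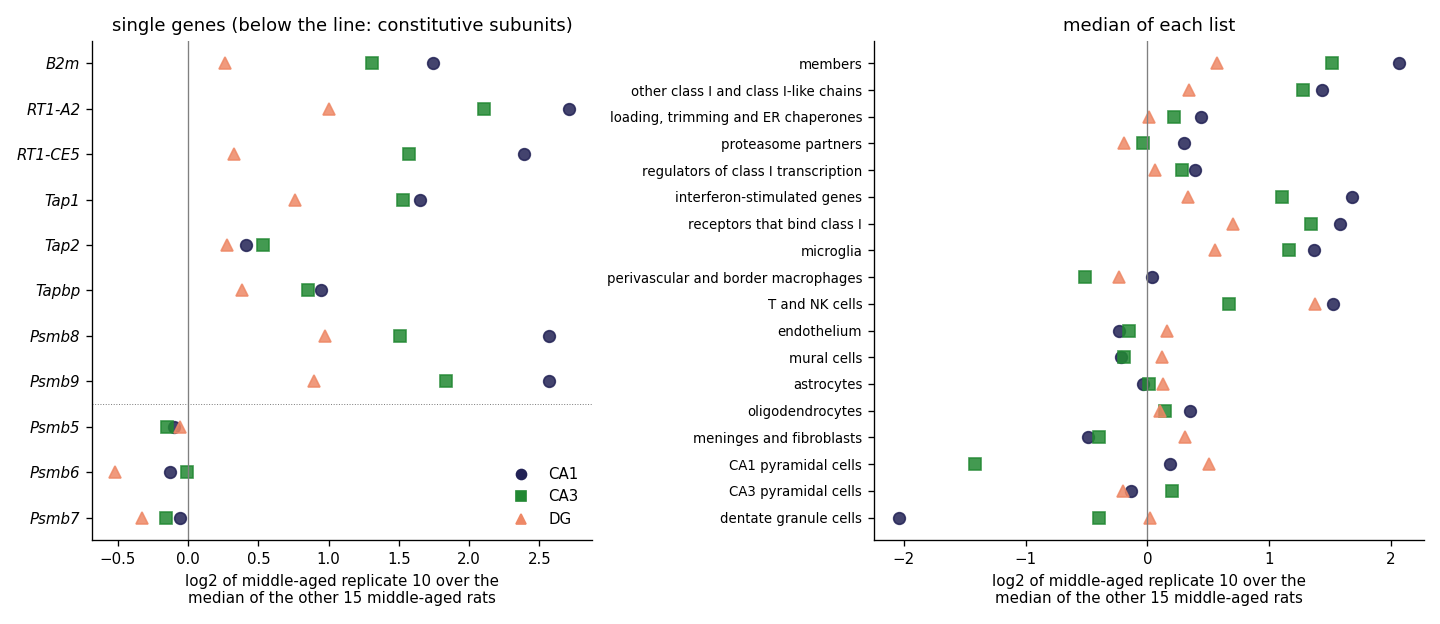
Log2 of the value of middle-aged replicate 10 over the median of the other 15 middle-aged rats (x axis) for single genes (left; constitutive proteasome subunits below the dotted line) and as the median of each gene list (right), with 1 symbol per subregion. The members sit between 0.26 and 2.71, with CA1 and CA3 to the right of the DG for each of them, and the constitutive subunits sit below 0.

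Other gene groups moved with the members in this rat. Of the interferon-stimulated genes on the list, CA1 had 24 of 30 at least 2-fold over the other 15 rats, CA3 had 15 of 29 and the DG had 7 of 29. Nlrc5, the activator of class I transcription, stood 3.13, 2.38 and 1.44 above them on the log2 scale, and Cd74, the class II invariant chain, 7.72, 5.82 and 4.92; both were singled out after their values were seen. Of 13 measured microglial markers, 10, 7 and 4 were at least 2-fold higher, and their summed level in CA1 was 38200 against 7664 to 10660 in the other 15. Of the T and NK cell markers, Cd4, which microglia also express, and Cd3e were the only ones of 15 in the tables, and none of 5 B cell markers was. Cd4 stood 2.77, 2.10 and 1.44 above the other 15 rats on the log2 scale, and Cd3e 0.29, −0.76 and 1.31, the last from 50.1 normalized counts within a range of 0 to 130.3. Choroid plexus and ependymal markers were at least 2-fold higher for 2 of 3, 1 of 3 and 1 of 1, with summed levels inside the range of the other 15. Markers of endothelium, mural cells, astrocytes, oligodendrocytes, meninges, red blood cells and perivascular macrophages had 0 genes 2-fold higher in any subregion. Dentate granule markers were lower in its CA1 library (median −2.04, 4 of 5 at least 2-fold) and CA1 markers in its CA3 library (median −1.42, 4 of 6). The part of cell makeup and dissection in the members' values was not tested.

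Between 5 and 12 months, B2m rose in all 3 subregions and no other member passed the test in any of them. On the log2(value + 1) scale used for all tests, B2m was higher by 0.43 ± 0.14 (SE) in CA1, by 0.41 ± 0.10 in CA3 and by 0.33 ± 0.07 in the DG. The count of 1 of 8 in each subregion stands beside 25.2% of all genes tested for CA1, 21.7% for CA3 and 37.1% for the DG, so calls were no more common among the members than among all genes. The median change of the 8 members was 0.02, 0.14 and −0.03 in the same order, and over all genes tested in CA1 it was 0.00. The count stayed at 1 of 8, B2m, in each subregion when replicate 10 was left out, with 22.9%, 20% and 36.9% of all genes called. The median change of the members was then −0.07, 0.04 and −0.07.

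**Figure D2:**
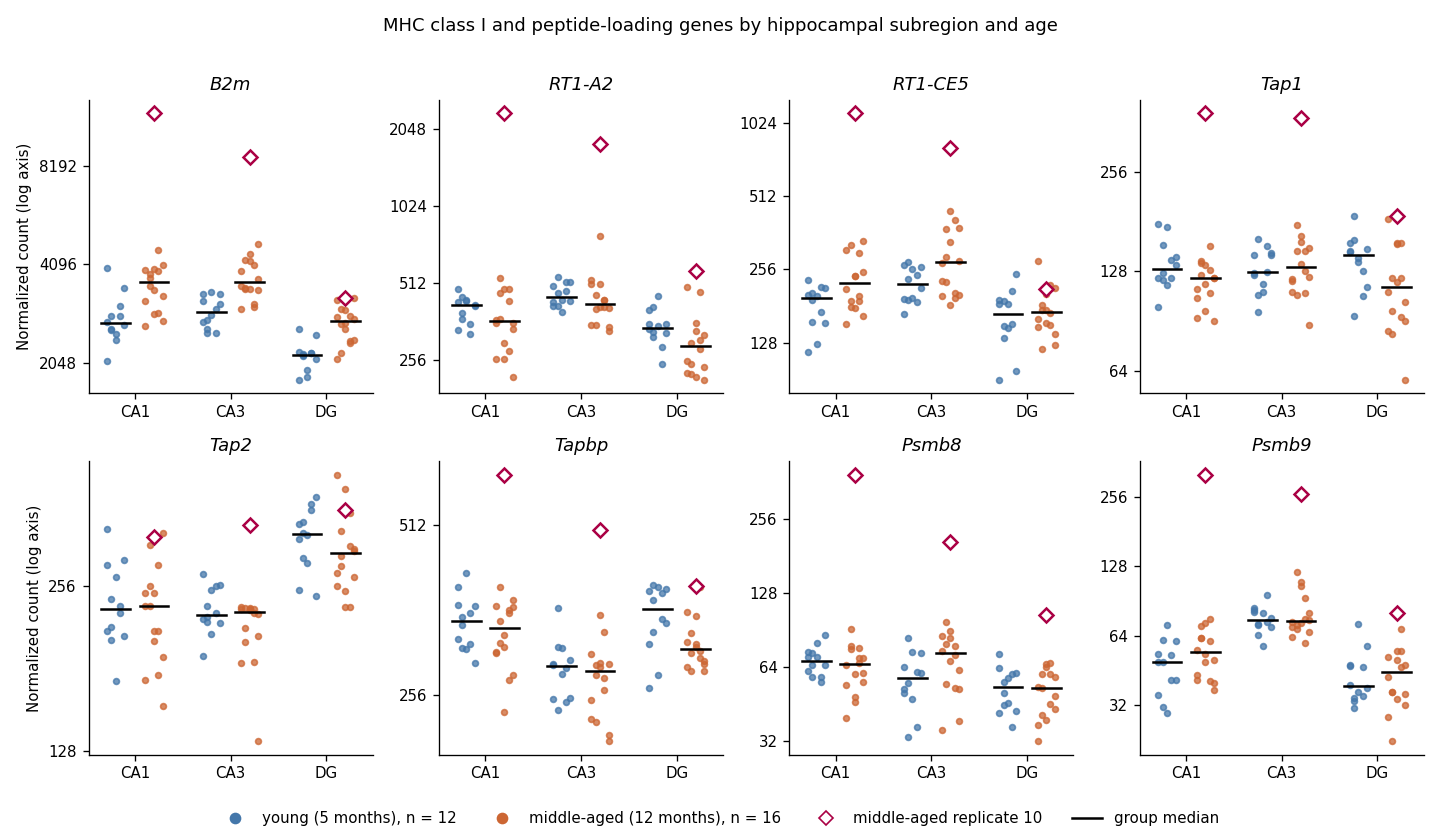
Normalized count (log axis) of each of the 8 genes by subregion, with 1 point per library of 12 young (blue) and 16 middle-aged rats (orange), black lines at the group medians and open diamonds for middle-aged replicate 10. B2m medians are higher at 12 months in each subregion, and replicate 10 lies above every other library for 7 genes in CA1 and all 8 in CA3.

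B2m encodes beta-2-microglobulin, the light chain shared by all classical class I molecules and by several class I-like ones. In CA1 its normalized count ran from 2078 to 3992 in young rats (median 2710) and from 2668 to 11810 in middle-aged rats (median 3629), the highest being replicate 10 and the next 4524. In CA3 it ran from 2529 to 3381 (median 2941) against 3001 to 8720 (median 3615), and 13 of the 16 middle-aged rats lay above every young rat. In the DG the young ran from 1823 to 2608 (median 2179) and the middle-aged from 2106 to 3244 (median 2754), with 10 of 16 above every young rat. The groups overlapped in each subregion, most in CA1, where 3 of 16 middle-aged rats were above the highest young rat and 15 of 16 above the young median. The young and middle-aged means were 2822 ± 503 (SD, n = 12) and 4026 ± 2142 (n = 16) for CA1. For CA3 they were 2948 ± 317 and 4029 ± 1349, and for the DG 2167 ± 228 and 2727 ± 358.

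The adjusted p of limma for B2m was 0.0284 in CA1, 0.00609 in CA3, 0.000657 in the DG and 0.000713 for the average of each rat's 3 subregions, where the change was 0.39 ± 0.09, a fold of 1.31, and 50% of all genes were called. Without replicate 10 the change was 0.32, 0.33, 0.31 and, on average, 0.32, with adjusted p of 0.0112, 0.0014, 0.00104 and 3.73e-05 (49.7% of all genes called on average). In the second run alone B2m rose in each subregion, by 0.47, 0.46 and 0.33 (adjusted p 0.000265, 0.00195 and 0.0033), and in CA1 and CA3 all 6 middle-aged rats lay above all 6 young ones. In that run 33.8%, 16.5% and 46.9% of all genes were called, and the share that separates the ages without overlap is not given. Within the first run alone the changes were 0.39, 0.39 and 0.34 and did not pass (adjusted p 0.336, 0.155 and 0.104), where 3.19%, 4.83% and 0.172% of all genes were called. With replicate 10 left out of that run they were 0.20, 0.25 and 0.31, so the values for CA1 and CA3 rest in part on this rat. B2m then passed in CA3 (adjusted p 0.0492) and, at 0.25, on average (adjusted p 0.0215), but not in CA1 or the DG (adjusted p 0.393 and 0.159). In those fits 1.89%, 3.95% and 0.0688% of all genes were called by subregion and 16% on average. Leaving out young replicate 1 took the adjusted p in CA1 to 0.057.

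**Figure D3:**
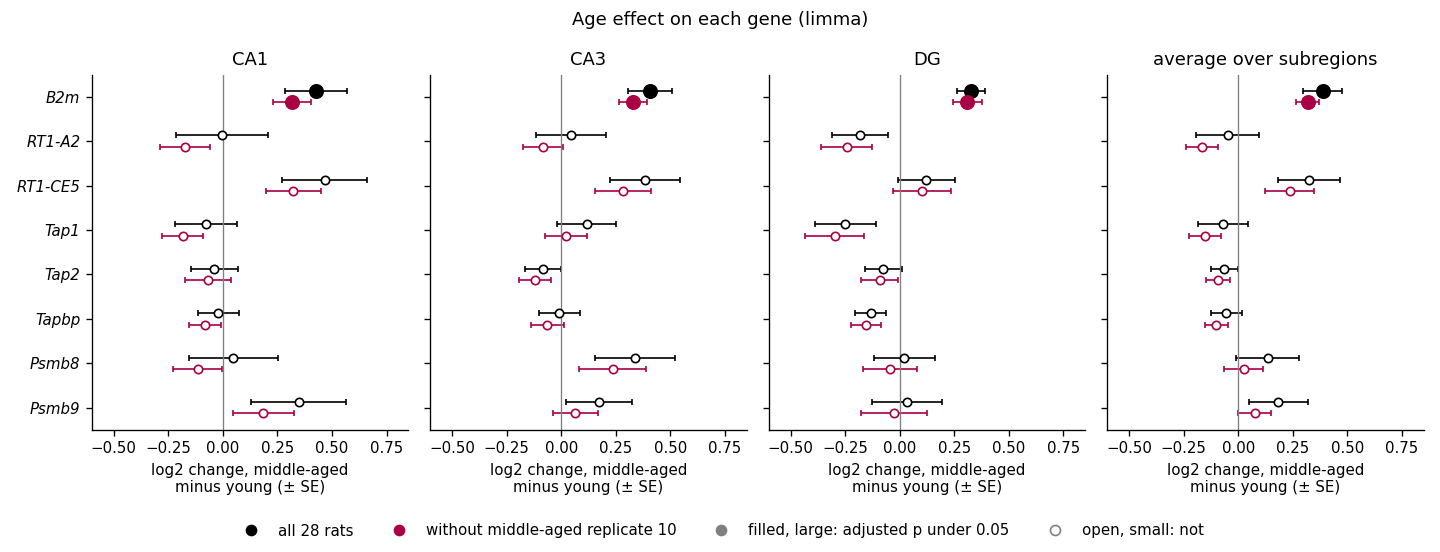
Log2 change from 5 to 12 months (x axis, ± SE, limma) of each gene in CA1, CA3, the DG and the average over subregions, with all 28 rats (black) and without middle-aged replicate 10 (red); filled symbols mark adjusted p under 0.05. B2m is the one filled gene in each panel, and the estimates of the other genes lie between −0.30 and 0.47.

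The 2 heavy chains did not move alike. RT1-CE5, a class I chain of the RT1-CE region, had a median of 196.1 normalized counts in young CA1 (117.1 to 232) and 226 in middle-aged CA1 (153.1 to 1117, the next highest 334.1). In CA3 it ran from 167.4 to 273.3 (median 223.7) against 183.6 to 808.5 (median 274), and in the DG from 90.2 to 245.1 (median 168.7) against 121.1 to 277.9 (median 171.8). Of the 16 middle-aged rats, 8 lay above every young rat in CA1 and in CA3, and 1 did so in the DG. Its change was 0.47 ± 0.20, 0.38 ± 0.16 and 0.12 ± 0.13 for CA1, CA3 and the DG, with limma's adjusted p at 0.0739, 0.0859 and 0.486.

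Whether RT1-CE5 passed depended on the fit. When the run was a term of the fit the change was 0.51 in CA1 and 0.44 in CA3 (adjusted p 0.0343 and 0.0245), with 32.2% and 25.7% of all genes called. In edgeR on recovered reads it was 0.65 and 0.49 (adjusted p 0.0363 and 0.0423), with 26.2% and 21.8% called. Without replicate 10 the change in CA1 was 0.32 (adjusted p 0.0621) and in CA3 0.28 (adjusted p 0.113). In young CA1 the gene averaged 159.7 ± 40.8 among rats of the first run and 204.8 ± 9.1 among those of the second (SD, n = 6 each), a gap within 1 age that was not tested. Among rats of the second run it rose by 0.50 in CA1 and 0.47 in CA3 (adjusted p 0.00125 and 0.015). There the CA1 values of the young, 192.1 to 216, did not reach those of the middle-aged, 240.1 to 334.1. How many of all genes separate in this way is not given.

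RT1-A2, the other heavy chain, had a lower median in middle-aged rats in each subregion, and no difference passed in the fit over all rats. Its normalized count ran from 324 to 487 in young CA1 (median 420.1) and from 220.1 to 2359 in middle-aged CA1 (median 364). In CA3 the medians were 454.1 (397.3 to 542.2) and 427 (333.8 to 1785), and in the DG 344.2 (248.8 to 456.5) and 292.2 (214.8 to 571.8). Between 4 and 6 of the 16 middle-aged rats lay below the lowest young rat in each subregion. The change was −0.00 ± 0.21, 0.04 ± 0.16 and −0.18 ± 0.13 for CA1, CA3 and the DG, and without replicate 10 it was −0.17, −0.08 and −0.24 (adjusted p 0.268 in CA1 and 0.0974 in the DG). In the second run alone it fell by 0.41 in CA1 and 0.38 in the DG (adjusted p 0.0173 and 0.0131).

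Tap1 and Tap2 encode the paired chains of the peptide transporter, and Tapbp encodes tapasin, which bridges the transporter and the class I molecule. None of the 3 passed in any subregion. Tap1 ran from 99.5 to 177.3 normalized counts in young CA1 (median 130) and from 90.2 to 384.1 in middle-aged CA1 (median 121.8). In CA3 its medians were 126.8 and 131.4, and in the DG 142.9 (93.9 to 188) and 114.7 (60.0 to 188). Tap1 changed by −0.08, 0.12 and −0.25 with SE of 0.14, 0.13 and 0.14, and by −0.18, 0.02 and −0.30 when replicate 10 was left out. The groups overlapped in each subregion. Tap2 had young and middle-aged medians of 232.3 and 236 for CA1, 227 and 230.3 for CA3, and 318.8 and 294.1 for the DG, with changes of −0.04 ± 0.11, −0.08 ± 0.08 and −0.07 ± 0.08 (−0.07, −0.12 and −0.09 when replicate 10 was left out).

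Tapbp had medians of 346.2 and 336.2 for CA1, 287.7 and 282.5 for CA3, and 363.2 and 308.5 for the DG. In the DG the young ran from 263.3 to 400.4 and the middle-aged from 282 to 399.2, and 14 of the 16 middle-aged rats lay below the young median. The change there was −0.13 ± 0.07 (adjusted p 0.139). Leaving out young replicate 6 brought the DG value past the test, as did array weights. In the second run alone Tapbp fell by 0.32 in the DG (adjusted p 0.00162), where the young lay between 376.9 and 400.4 and the middle-aged between 282 and 358.8, with no overlap. Of all genes tested in the DG 46.9% were called in that run, and how many separate without overlap is not given.

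More members passed in the second run than in the first, and in both directions. By limma CA1 had 3 of 8, CA3 2 and the DG 4, against 33.8%, 16.5% and 46.9% of all genes tested. On average over subregions 5 passed, B2m and RT1-CE5 higher and RT1-A2, Tap2 and Tapbp lower, against 58.1%. In the DG B2m rose while RT1-A2, Tap1 and Tapbp fell, Tap1 by 0.45 (adjusted p 0.0119). In the first run 0 of 8 passed in any subregion or on average (18.4% of all genes on average), and at an unadjusted p under 0.05 the counts were 0, 1, 1 and 1. When replicate 10 was left out, 0, 1, 0 and 1 passed, each B2m. The difference of the age effect between the runs was tested itself: it did not pass for any member in a single subregion, where 3.24%, 0.577% and 6.15% of all genes passed with all rats and 3.81%, 0.598% and 4.52% without replicate 10. For the average over subregions it passed for Tapbp alone, at −0.39 ± 0.13 (adjusted p 0.0357, with 14.5% of all genes called, and 15.4% without replicate 10).

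**Figure D4:**
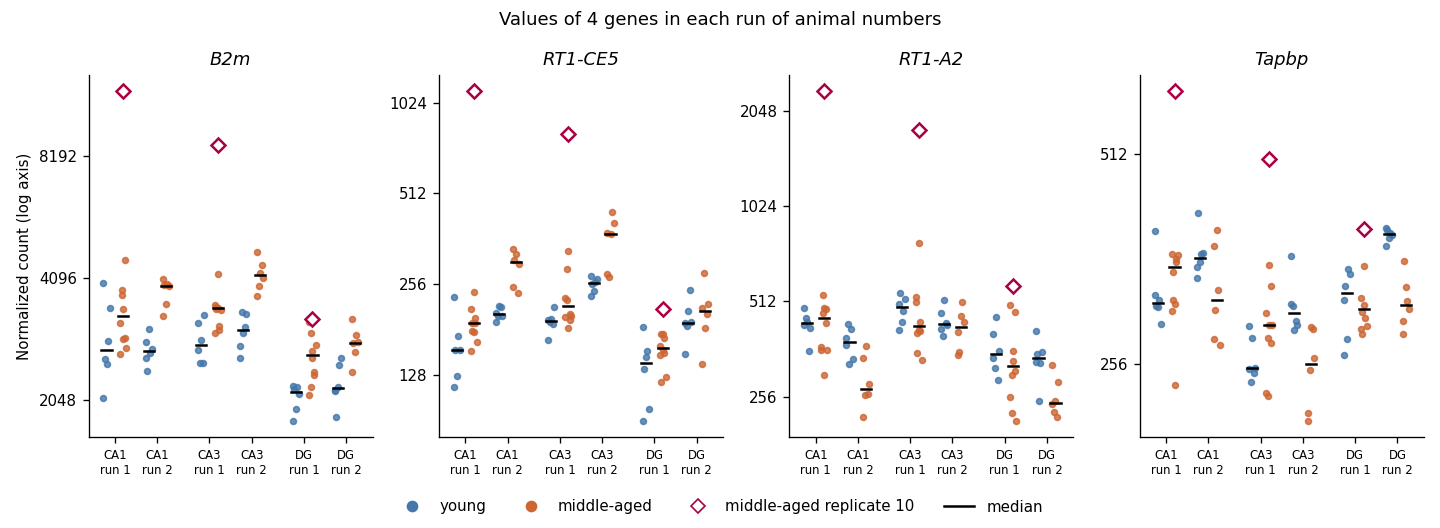
Normalized count (log axis) of B2m, RT1-CE5, RT1-A2 and Tapbp by subregion and run of animal numbers, with points for young (blue) and middle-aged (orange) libraries, black lines at the medians and open diamonds for middle-aged replicate 10 in the first run. In the second run of CA1, B2m and RT1-CE5 separate the ages without overlap, and in the second run of the DG Tapbp does so in the opposite direction. The share of all genes that separate the ages is not given.

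Psmb8 and Psmb9, the inducible catalytic subunits of the proteasome, rested on the fewest reads of the 8, and neither passed in any subregion. Psmb8 ran from 55.6 to 86.8 normalized counts in young CA1 (median 67.7) and from 39.7 to 390.7 in middle-aged CA1 (median 65.7). Its medians were 57.6 and 73.0 for CA3 and 52.8 and 52.6 for the DG, and its changes 0.05 ± 0.20, 0.34 ± 0.18 and 0.02 ± 0.14. Psmb9 had medians of 49.1 and 54.4 for CA1, 75 and 74.1 for CA3, and 38.6 and 44.5 for the DG, with changes of 0.35 ± 0.22, 0.17 ± 0.15 and 0.03 ± 0.16. Leaving out replicate 10 took Psmb8 to −0.12, 0.24 and −0.05 and Psmb9 to 0.19, 0.06 and −0.03. The groups overlapped for both genes in each subregion.

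Each inducible subunit was also set against the constitutive subunit whose place it takes, since a ratio within a library does not depend on that library's scaling. The log2 ratio of Psmb8 to Psmb5 was higher in middle-aged rats by 0.50 in CA3 and 0.32 in the DG, with raw p of 0.0184 and 0.0263 in a 2-sided permutation test over rats and 0.0789 each after adjustment over 9 ratios. The ratio of Psmb9 to Psmb6 was higher by 0.68, 0.49 and 0.35 for CA1, CA3 and the DG (permutation adjusted p 0.0827, 0.0827 and 0.19). Psmb6 itself was low, with a mean of 87.2 normalized counts in young CA1 against 2073 for Psmb5. Its young and middle-aged CA1 means were 52.9 and 53.2 in the first run and 121.6 and 85.8 in the second. For the DG they were 64.7 and 66.1, then 118.2 and 76.5. The part of Psmb6 in the ratio was not tested. The third pair, Psmb10 to Psmb7, was higher by 0.38 in CA3, the 1 ratio of 9 that passed (adjusted p 0.0441, permutation). That call was lost when any 1 of 17 of the 28 rats, replicate 10 among them, was left out. Without middle-aged replicate 5, 12 or 16, on the other hand, 5, 4 and 2 of the 9 passed. Psmb5 itself fell in CA3 by 0.16 and in the DG by 0.30 (limma adjusted p 0.0182 and 0.00592).

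B2m rose relative to most of the other members. This comparison was chosen after the values were seen. Of 21 log2 ratios of B2m to another member, 14 were higher in middle-aged rats at an adjusted p under 0.05 in the permutation test and none was lower. All 21 share B2m, so its own rise raises each of them. The share for ratios of B2m to any other gene is not given, so the count cannot be read as particular to the members. Against Tapbp the ratio was higher by 0.45, 0.42 and 0.46 in CA1, CA3 and the DG, the last with a permutation adjusted p of 0.00042. Against RT1-A2 it was higher by 0.43, 0.36 and 0.51 (permutation adjusted p 0.0299, 0.0214 and 0.0196), and against Tap2 by 0.47, 0.49 and 0.40. Against RT1-CE5 the ratio differed by −0.04, 0.02 and 0.20, which did not pass. Leaving out 1 rat at a time gave 10 to 15 of 21, and the first run alone gave 0.

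For no member did the difference of the age effect between subregions, taken within rats, pass its test. By limma 0 of 8 passed for CA3 against CA1, the DG against CA1 and the DG against CA3, where 0%, 0.607% and 2.73% of all genes passed. At an unadjusted p under 0.05 the counts of members were 0, 1 and 1. The 2 were RT1-CE5, whose age effect was 0.35 ± 0.17 smaller in the DG than in CA1 (adjusted p 0.306; a difference of −0.22 when replicate 10 was left out), and Tap1, 0.37 ± 0.16 smaller in the DG than in CA3 (adjusted p 0.189). No other tool was run on these differences.

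Levels across subregions were described in RPM (recovered reads scaled to a common library total) and not tested, since the tables were normalized separately. The class I chains were lower in the DG than in the Ammon's horn fields, while Tap2 was higher there. B2m had medians of 179, 183 and 138 RPM for CA1, CA3 and the DG, and was higher in CA1 than in the DG in 25 of 28 rats and in CA3 than in the DG in 26. CA1 and CA3 could not be ordered for B2m, with CA3 higher in 13 of 28. RT1-CE5 had medians of 11.5, 12.9 and 9.49 RPM, higher than in the DG in 26 rats in CA1 and 27 in CA3. RT1-A2, at 22.2, 23.5 and 18.7 RPM, was higher in CA3 than in the DG in 27 rats and in CA1 than in the DG in 22.

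Tap2 ran the other way, with medians of 13.3, 12.2 and 17.4 RPM. CA3 was above the DG in 0 of 28 rats and CA1 in 3. Tap1, the other chain of the transporter, was near 7 RPM throughout (7.13, 6.91 and 7.13), and no pair of subregions was ordered in 25 or more rats. Tapbp was lowest in CA3, at 15.4 RPM against 19.4 in CA1 and 19.0 in the DG, with CA3 below CA1 in all but 2 rats. Psmb9 was highest in CA3 (3.94 RPM against 2.90 and 2.26), above the DG in 27 rats with a median ratio of 1.82. Psmb8 had 3.81, 3.39 and 3.00 RPM for CA1, CA3 and the DG, and CA1 was above the DG in 25 rats. In all, 11 of the 24 pairs held their order in at least 25 rats. The share of all genes that hold such an order is not given, so the count cannot be read as particular to the members.

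Some rats were high in more than 1 subregion. For each member the deviation from the age group's mean was related between 2 subregions over 28 rats, 24 relations in all. RT1-CE5 in CA1 and CA3 had r = 0.86 and rho = 0.77 (permutation adjusted p 0.00024 and 0.00036), and r = 0.74 without the 2 rats farthest from the median. For CA1 and the DG r was 0.58 and rho 0.77, and for CA3 and the DG 0.54 and 0.68. Tap1 in CA1 and CA3 and Tapbp in CA3 and the DG also passed on both measures, 5 of 24 in all. No share of all genes with such relations is given beside this count. The relation of Tap1 did not pass once replicate 10 was left out, and 4 were called. With the means of the runs removed, or within either run alone, 0 of the 24 passed on both measures. In the second run alone r for RT1-CE5 was 0.01 between CA1 and CA3, against 0.91 within the first run, which was 0.44 without replicate 10.

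The members also differed in how far they followed each other across rats. As the mean over 3 subregions of Pearson's r with the mean of the other 7, over 28 libraries that share the 28 rats, RT1-A2 had 0.80, Tap1 0.78, Psmb9 0.74, Psmb8 0.71, Tapbp 0.62, RT1-CE5 0.50, B2m 0.47 and Tap2 0.39. Once replicate 10 was left out the value was 0.50 for RT1-A2, 0.51 for Tap1, 0.10 for RT1-CE5 and −0.05 for B2m. The 6 other genes most like the mean of the members, of 14283 compared, were C1qa (0.90) and C1qb (0.88), subunits of the complement starter C1q, RT1-A1 (0.90), a further class I heavy chain, Npc2 (0.88), a lysosomal cholesterol carrier, Cyth4 (0.87) and the complement component C2 (0.87). Without replicate 10 the 6 were Srebf1 (0.76), Gsn (0.75), Sorbs3 (0.74), Josd2 (0.73), Marcksl1 (0.72) and Mxra8 (0.72).

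The other genes of the pathway were read beside the share of all genes called higher, which was 12.4% for CA1, 10.9% for CA3 and 18.5% for the DG, and called either way, 25.2%, 21.7% and 37.1%. Of the other class I and class I-like chains tested, CA1 had 1 of 16 higher, CA3 2 of 17 and the DG 4 of 17, and none fell, near or below those shares. Hfe, the B2m-bound regulator of iron uptake, rose by 0.89 ± 0.18 in CA1 (limma adjusted p 0.00125), by 0.43 ± 0.09 in CA3 (0.00126) and by 0.33 ± 0.10 in the DG (0.00969). RT1-CE7, a close relative of RT1-CE5, rose by 0.52 in CA3 and 0.37 in the DG. The median change of the list was 0.21, 0.14 and 0.19, and 0.07, 0.07 and 0.20 when replicate 10 was left out.

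Of 15 genes for loading, trimming and chaperoning, CA1 had 3 that rose, CA3 5 that rose and 1 that fell, and the DG 3 that rose and 2 that fell. Called either way these are 3, 6 and 5 of 15, near the shares of all genes for CA1 and the DG. Canx, the chaperone of newly made heavy chains, rose by 0.18 ± 0.06, 0.14 ± 0.05 and 0.33 ± 0.07, the first with limma's adjusted p at 0.0553 when replicate 10 was left out. Erap1, which trims peptides inside the endoplasmic reticulum, rose by 0.31 ± 0.08 in CA3 and 0.26 ± 0.10 in the DG. Sec61a1, a channel subunit of the same membrane, fell by 0.18 in CA3 and by 0.27 in the DG, and Thop1, a cytosolic peptidase, fell by 0.26 in the DG. Of 8 proteasome partners, 1 rose in each subregion, and 0, 2 and 1 fell. The 1 that rose was Psme1, a subunit of the activator cap that interferon raises, by 0.46 ± 0.12, 0.39 ± 0.11 and 0.33 ± 0.10. The constitutive subunit Psmb5 fell in CA3 and the DG, as given above, and Psmb7, another one, named here after its values were seen, fell in CA3.

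Interferon-stimulated genes rose in part, with CA1 at 5 of 30 called higher, CA3 at 9 of 29 and the DG at 8 of 29 and 0 lower, beside the same shares of all genes called higher. Ifit3 rose by 0.63 ± 0.19, 1.04 ± 0.18 and 0.99 ± 0.31, and Ifi44 by 0.60 ± 0.15, 0.40 ± 0.12 and 0.60 ± 0.13. Of 29 or 30 regulators of class I transcription, CA1 had 2 that rose, CA3 6 that rose and 2 that fell, and the DG 4 of each. Of all genes 25.2%, 21.7% and 37.1% were called either way. The regulators lay below these shares in CA1 and the DG and near it in CA3. Irf2 rose by 0.23 ± 0.08 in CA1 and 0.20 ± 0.06 in the DG, and Usf2 fell by 0.14 in CA3 and by 0.30 in the DG. Of 3 measured receptors that bind class I, Lilrb3a rose in each subregion, by 0.51 ± 0.19, 0.77 ± 0.16 and 0.70 ± 0.15. The values of these 3 lists include replicate 10, and those without it are not given. In that rat 24, 15 and 7 of the interferon-stimulated genes stood at least 2-fold over the other middle-aged rats. So did 7, 6 and 2 of the regulators and 2, 2 and 1 of the receptors. How far the age changes rest on this rat cannot be read from these counts.

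Microglial markers were also called higher with age, in part. Of 13 measured, CA1 had 6 that rose, CA3 9 and the DG 4, and 0 fell, beside 12.4%, 10.9% and 18.5% of all genes called higher. Their median change was 0.38, 0.37 and 0.18. Their summed level ran from 6817 to 8502 in young CA1 and from 7664 to 10660 in middle-aged CA1 without replicate 10, from 6075 to 7678 against 7492 to 11370 in CA3, and from 5173 to 8013 against 5163 to 7673 in the DG. In the DG the 2 ranges overlapped over most of their length. The counts were 7, 10 and 3 of 13 and the median changes 0.27, 0.31 and 0.10 when replicate 10 was left out. Astrocyte markers had 0 higher and 1 lower of 8 in CA1 and 1 each way in CA3 and the DG, and endothelial markers had 1, 0 and 2 of 10 lower, with 0 higher. The part of the markers in the change of B2m was not tested.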

How the data were processed

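RNA was sequenced in 84 libraries, and per the labels RNA was selected by polyA and an Ion Torrent library kit was used. Per the submitters' processing notes the tools were STAR 2.5.3a, DESeq2 3.5 and Partek and the build was rn6, while the annotation and the strand were not given in the sources used here. The authors deposited a signal per gene, in 3 tables, each value being the reads of a gene over the size factor of its library. Of these, 100% of values up to 1000 reads came out within 0.1 of a whole read, so whole reads were recovered. The CA3 table has 1 column that bears an animal number without the subregion, taken as that animal's CA3 library. No 2 libraries of a group agreed within sampling noise, and p-values measure the spread between rats. The precision at this depth covers counting error only.

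The test was limma 3.58.1 on log2(value + 1), for genes that reached 10 in 12 or more of 28 libraries (moderated with a trend, 2-sided, R 4.3.3), with Benjamini-Hochberg adjustment over all genes of a table and a threshold of 0.05. Averages and differences between subregions used values within a rat, paired by the animal number in the titles. Permutation tests drew 100000 permutations of rats, except that the ratio tests within a run took all of them. edgeR 4.0.16 and DESeq2 1.42.0 were run on recovered reads, and the tests were checked on simulated data. Other alternatives were another pseudocount (0.5 or 5), a minimum of 50, no filter, TMM, quantile normalization, array weights, a term for the run, each run alone and leaving out each rat. Alternatives chosen after the data were seen were the fits that join replicate 10 with the runs, the difference between runs, the within-run relations and the ratios of B2m. Named genes are the 8 members, the 4 of each pathway list with the smallest p on the average over subregions, the 6 most like the members and the 3 highest of each marker list. The members and the lists were chosen with earlier results of these data known. RefSeq's table of 47357 genes (GRCr8, not rn6) held 87.6% of the CA1 symbols and 87.7% of those of CA3 and the DG, and only the promoter windows carry its coordinates.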

Additional observations from a re-analysis of the deposited data

Results flagged for a closer look

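The change of Tapbp with age differed between the 2 runs of animal numbers, tested as the difference of the age effect on the average over subregions. The second run minus the first was −0.39 ± 0.13 on the log2 scale (limma adjusted p 0.0357, 14.5% of all genes called). Without middle-aged replicate 10 the difference was −0.32 (adjusted p 0.0137, 15.4% of all genes called). By subregion CA1 had −0.30 ± 0.19, CA3 −0.51 ± 0.17 and the DG −0.36 ± 0.12, none of which passed alone (adjusted p 0.415, 0.144 and 0.0731). The means behind it were, in CA3, 260.2 ± 19.1 normalized counts in young (SD, n = 6) and 308.5 ± 78.2 in middle-aged rats of the first run (n = 10), and 309.5 ± 29.1 and 252.8 ± 33.2 in the second (n = 6 each). The young means of the 2 runs also lay apart, which was not tested. The labels do not say what the runs are.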

How the results depend on the processing

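Another pseudocount (0.5 or 5), a minimum of 50, no filter, TMM and quantile normalization left the count of members called at 1, B2m, in each subregion and on average. A term for the run gave 2 in CA1, 2 in CA3 and 2 on average (B2m and RT1-CE5), and the same term without replicate 10 gave 2, 2 and 3. edgeR and DESeq2 gave 2 each in CA1 and in CA3, again B2m and RT1-CE5. Array weights gave 2 in the DG and 2 on average (B2m and Tapbp). The first run alone gave 0 in CA1, CA3, the DG and on average, and without replicate 10 it gave 0 in CA1 and the DG and 1, B2m, in CA3 and on average. The second run alone gave 3, 2, 4 and 5. Leaving out 1 rat at a time gave 0 to 2 in CA1 (0 without young replicate 1, 2 without middle-aged replicate 6), 1 in CA3, 1 to 2 in the DG and 1 to 2 on average, where RT1-CE5 was added without middle-aged replicate 2, 3, 5, 6 or 9 or young replicate 10. The differences between subregions had 0 members called in every setting run, with no replicate block as with the pairing by rat.

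Of the 9 immunoproteasome ratios 1 passed, 2 in the second run alone, and 0 to 5 on leaving out 1 rat. Of the 21 ratios of B2m 14 passed, 0 in the first run alone, and 10 to 15 on leaving out 1 rat. Of the 24 relations 5 passed, and 0 with the means of the runs removed, with them removed and replicate 10 left out, in the first run alone, in the second run alone, and in the first run without replicate 10. Of 24 orders of levels 11 held in RPM and 10 in the deposited values. In the deposited values Psmb8 was higher in CA1 than in the DG in 24 rats, so that order was lost. The order of Tapbp between CA3 and the DG was lost as well. RT1-CE5 was higher in CA3 than in CA1 in 25 rats there, an order that RPM did not hold. Among the single values under these settings no called value changed sign, 68 lost and 43 gained a call, and 139 without a call changed sign. The cause of these moves was not tested. Among the members, Psmb8 and Psmb9, with medians under 80 normalized counts, are limited most by counting error.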
